A study of Mus musculus with 8 samples.

Results

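Genes of the major histocompatibility complex (MHC) and of antigen presentation were followed in RNA from whole mouse kidneys. The members were all genes whose mouse symbol starts with H2-, plus 10 listed partner genes, kept where their counts summed to 10 or more over 8 libraries. Of 53 candidates found by symbol 39 were members, out of 37583 genes listed and 18707 with 10 or more counts. The members were 20 class I heavy chain genes, 7 class I partners, 9 class II chain genes, 2 class II partners, and H2-Ke6, which carries the H2- prefix but encodes a steroid dehydrogenase. The 20 class I genes include some annotated as pseudogenes or polymorphic pseudogenes: H2-K2, H2-T-ps, H2-T10, H2-Bl and H2-Q5. Psmb9, an immunoproteasome subunit, could not be matched by its identifier and is not analysed here. Another 14 candidates had at most 9 counts in all, 5 of them 0. One of these was H2-Ea-ps, the class II E alpha gene, whose 0 counts allow up to 0.223 CPM (the count scaled to the library's total of gene counts after TMM correction) in the shallowest library, from a floor of 3 counts.

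The 4 libraries labelled knockout came from mice with a Six2Cre transgene, 2 floxed alleles of Tfap2a and 1 floxed allele of Tfap2b, and the 4 labelled wildtype came from littermate controls given as WT. Tfap2a and Tfap2b encode the transcription factors AP-2 alpha and AP-2 beta, and Six2 drives the Cre in nephron progenitors and so in the tubule and podocyte cells made from them, while immune and endothelial cells have another origin. The labels give no strain, age, sex or batch, and nothing says that the libraries came from separate animals, so each p-value speaks of the spread among these 8 libraries and no more. The comparison asks how kidney transcripts differ when 2 alleles of Tfap2a and 1 allele of Tfap2b are targeted for deletion.

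Every nucleated cell can display peptides from its own proteins on class I molecules, which consist of a heavy chain and beta-2 microglobulin. The immunoproteasome cuts the peptides, the TAP transporter moves them into the endoplasmic reticulum, and tapasin helps to load them; NLRC5 switches on these genes, as does interferon gamma. Class II molecules display peptides taken up from outside, mostly on dendritic cells, macrophages and B cells, and their genes depend on the coactivator CIITA. In mice the classical class I genes (class Ia) and the many nonclassical ones (class Ib, the Q, T and M genes) lie with the class II genes on chromosome 17, where inbred strains carry different haplotypes that differ in which Q and T genes they hold and express.

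Gene counts totalled 13871861 to 15763526 in libraries labelled knockout and 14721847 to 16629301 in libraries labelled wildtype, and members took 0.157% to 0.251% and 0.154% to 0.273% of them. The labels could not be checked by the targeted genes, whose group means were higher under the knockout label: Tfap2a was at 3.64 to 5.81 CPM in knockout and 2.78 to 5.31 CPM in wildtype libraries, and Tfap2b at 58.0 to 103 CPM in knockout and 51.8 to 100.4 CPM in wildtype libraries (log2 differences 0.26, SE 0.24, and 0.03, SE 0.22). Counts over whole genes include exons outside a floxed part. Knockout and wildtype below therefore mean the labels. Transcripts of nephron segments were abundant in all libraries (Umod, uromodulin, at 3562 to 5006 CPM), so the tissue label was met. Knockout 2 and wildtype 1 held adrenal transcripts, with 785 and 776 CPM summed over Star, Hsd3b1, Cyp11a1 and Cyp11b1, against 4.52 to 10.4 CPM in the other libraries.

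No member passed the test between genotypes. In whole kidney, fewer cells of a type and less RNA per cell cannot be told apart, for this and all later values. By edgeR's quasi-likelihood test with Benjamini-Hochberg adjustment over 14433 genes, 0 of the 33 members that passed the filter on low counts were called, and the smallest adjusted p of any member was 0.957; over all genes tested 0 were called (0%). The direction of the uncalled differences leaned one way. The log2 difference (knockout minus wildtype) was below 0 for 27 of the 33 tested members and above 0 for 6, with a median of -0.34, while it was below 0 for 48.7% of all genes tested, with a median of 0.01. These signs are not independent, because members varied together. Wildtype 2 was the highest library for all 9 tested class II genes and partners, and wildtype 1 the lowest for 8. A single library can therefore set many signs at once. At an unadjusted p under 0.05 there were 6 members, all lower in knockout (Nlrc5, H2-T-ps, H2-D1, H2-Q4, H2-Bl and Tap1), against 1.84% of all genes tested that were lower and 2.17% that were higher at that p (4% together). That count was 6 with limma-voom, against 4.06% of all genes, and 7 with DESeq2, against 2.91%; DESeq2 called 0 of 39 members, against 0.0163% of all genes. In edgeR it was 13 of 33 without wildtype 1, against 8.53% of all genes in that fit, and 10 of 33 without knockout 1, against 3.17%. It was 1 of 34, against 6.06% of all genes, without knockout 2 and knockout 4, which held 175 and 363 CPM of the heat-shock gene Hspa1b against 11.8 to 41.4 CPM elsewhere. It was 2 of 35 without wildtype 3 and wildtype 4, against 1.62%. Levels also varied more among libraries than for most genes: the highest library was a median of 3.25 times the lowest for the tested members and 1.6 times for all genes tested.

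**Figure D1:**
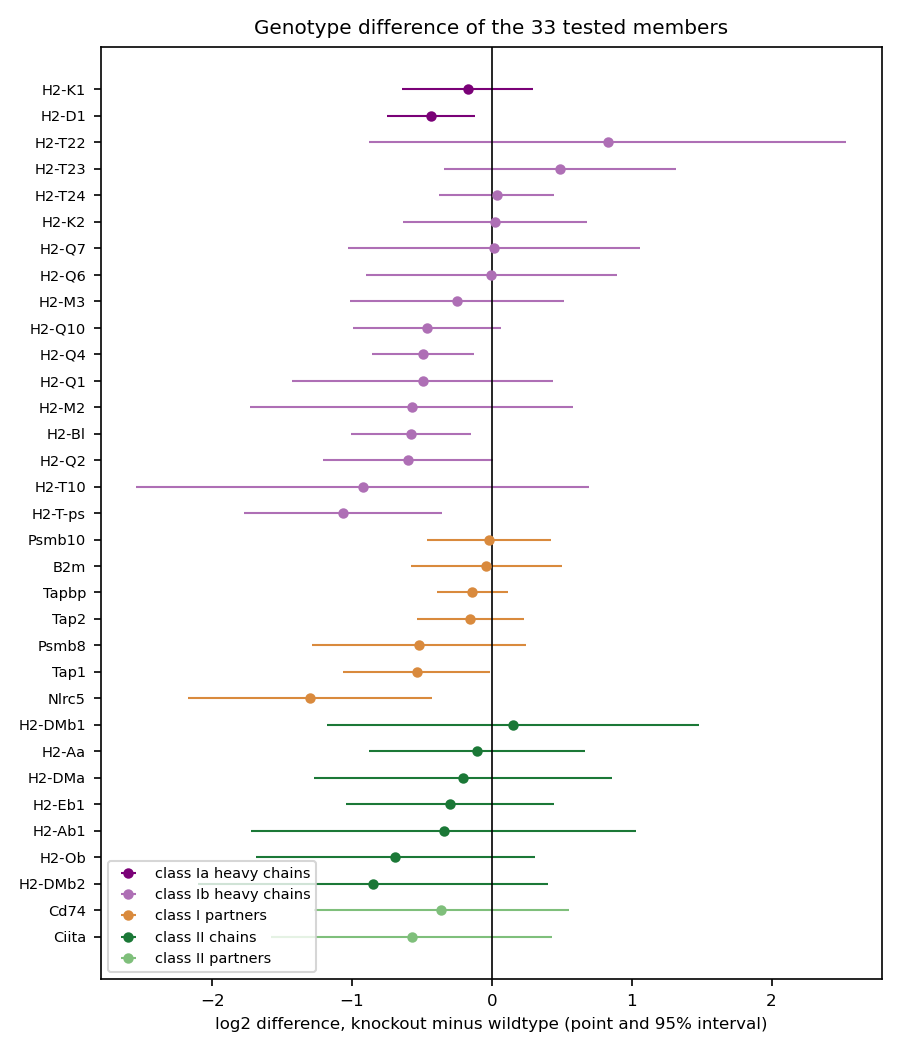
Log2 difference of each of the 33 tested members (x axis, knockout minus wildtype; point, with the 95% interval of the edgeR fit as a bar), grouped by role and coloured by group. The points lie left of 0 for 27 members and right of 0 for 6, and none had an adjusted p below 0.957.

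The classical class I chains were the most abundant heavy chains. H2-D1 (ENSMUSG00000073411, chromosome 17, 35262730 to 35267499 on GRCm38) was at 476, 325, 333 and 313 CPM in knockout 1 to 4, against 445, 507, 517 and 488 CPM in wildtype 1 to 4. Knockout 1 was the only knockout library inside the wildtype range. On the log2 scale H2-D1 differed by -0.44 (SE 0.14, 95% interval -0.75 to -0.12; edgeR adjusted p = 0.957), and it was lower in 3 of 4 knockout libraries than in every wildtype one. H2-K1 (ENSMUSG00000061232, chromosome 17, 33996017 to 34000347), the other classical chain, was at 382, 221, 200.2 and 226 CPM in knockout 1 to 4 and at 242, 363, 299 and 258 CPM in wildtype 1 to 4. The groups overlapped for H2-K1, again because knockout 1 stood above the other knockout libraries (log2 difference -0.17, SE 0.21; edgeR adjusted p = 0.957). The H2-K1 difference was -0.43 without knockout 1 and -0.05 without wildtype 2.

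B2m, beta-2 microglobulin, which pairs with all class I chains and lies on chromosome 2, was at 619, 306, 319 and 343 CPM in knockout 1 to 4, against 292, 513, 413 and 412 CPM in wildtype 1 to 4. It shared the high value of knockout 1 with H2-K1 and H2-D1. The group means of B2m were 397 ± 149 CPM in knockout and 407 ± 90.2 CPM in wildtype (SD, n = 4 each), a log2 difference of -0.04 (95% interval -0.58 to 0.50; edgeR adjusted p = 0.994). Per kilobase of annotated exon, averaged over 8 libraries, B2m was the most abundant member at 467 CPM per kb, ahead of H2-D1 at 165, Cd74 at 138 and H2-K1 at 93.3 CPM per kb. Summed over the 20 heavy chain genes, class I reached 804 ± 175 CPM in knockout and 961 ± 123 CPM in wildtype (SD, n = 4 each; log2 difference -0.27). The 2 class Ia genes summed to 619 ± 159 CPM in knockout and 780 ± 79.85 CPM in wildtype (log2 difference -0.36). The 18 class Ib genes summed to 185 ± 23.5 CPM in knockout and 181 ± 53.5 CPM in wildtype (log2 difference 0.06). Without H2-D1 the log2 difference of the class I sum was -0.09. The 4 endothelial markers, from a cell type that makes class I, summed to 284 ± 17.3 CPM in knockout and 242 ± 12.9 CPM in wildtype (SD, n = 4 each), the opposite direction, and 0 of the 4 were at 0 counts in all libraries; their part was not tested.

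The promoters of both classical chains are shown because these chains led the class I values, and that of H2-T22, a class Ib gene, because its level set 2 libraries apart. Each window is 250 bases before to 50 after the start in RefSeq (GRCm38.p6), in the direction of the gene. Capitals mark 4 motifs: the inverted CCAAT box ATTGG, a kappaB element GGGATTCCC, an interferon response core GTTTCACTT, and TGATGA, the core of the X2 box or site alpha, searched on both strands; none overlaps another.
H2-K1 (chr17:34000298-34000597, minus strand): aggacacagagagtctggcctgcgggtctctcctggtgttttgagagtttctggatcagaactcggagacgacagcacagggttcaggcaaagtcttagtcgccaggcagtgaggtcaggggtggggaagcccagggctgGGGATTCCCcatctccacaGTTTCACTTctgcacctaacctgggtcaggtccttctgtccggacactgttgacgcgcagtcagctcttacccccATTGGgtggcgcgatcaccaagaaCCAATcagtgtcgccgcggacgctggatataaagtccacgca
H2-D1 (chr17:35262844-35263143, plus strand): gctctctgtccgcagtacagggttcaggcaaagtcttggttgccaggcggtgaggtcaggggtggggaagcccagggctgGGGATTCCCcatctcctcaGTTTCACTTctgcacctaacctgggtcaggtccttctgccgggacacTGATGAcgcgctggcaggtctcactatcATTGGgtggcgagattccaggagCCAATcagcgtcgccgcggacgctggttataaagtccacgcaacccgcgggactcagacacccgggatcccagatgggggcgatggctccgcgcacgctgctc
H2-T22 (chr17:36042693-36042992, minus strand): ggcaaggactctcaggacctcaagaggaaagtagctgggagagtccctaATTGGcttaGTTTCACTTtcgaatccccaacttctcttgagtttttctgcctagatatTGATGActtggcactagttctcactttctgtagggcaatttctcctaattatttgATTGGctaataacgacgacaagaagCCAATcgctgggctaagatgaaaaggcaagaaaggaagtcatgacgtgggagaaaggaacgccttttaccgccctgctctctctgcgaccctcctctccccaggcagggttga
A promoter was found for 14 class I chain members and 28 of the 39 members in all. The kappaB letters were in 4 of these 14 class I promoters (H2-K1, H2-D1, H2-Q6 and H2-Q7), against 0.37% of 27025 promoters. The interferon letters were in 9 of 14, against 0.403% of all promoters. The CCAAT letters were in 11 of 14, against 37.9%, and TGATGA in 7 of 14, against 12.7%. The motifs were picked with the sequences in view, near-identical genes share promoters, and a match is no more than a match of letters.

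All 7 class I partners had log2 differences below 0, from -1.30 to -0.02, and none passed the test. Nlrc5, the class I coactivator, on chromosome 8, had the largest difference of any tested member in size: it was at 2.35, 2.30, 4.60 and 2.27 CPM in knockout 1 to 4, against 2.93, 9.45, 10.2 and 5.62 CPM in wildtype 1 to 4. Wildtype 1 lay within the knockout range, and the other 3 wildtype libraries lay above it. The log2 difference of Nlrc5 was -1.30 (SE 0.39, 95% interval -2.17 to -0.43; edgeR adjusted p = 0.957), and it ran from -1.61 to -1.07 when each library was left out in turn. Tap1, a subunit of the peptide transporter, had 14.7, 11.4, 12.4 and 11.8 CPM in knockout 1 to 4 and 11.0, 22.5, 25.1 and 14.4 CPM in wildtype 1 to 4, so that wildtype 2 and 3 stood out (log2 difference -0.54, SE 0.24; edgeR adjusted p = 0.957). Tap2, its partner subunit, was at 29.1, 25.9, 17.1 and 22.7 CPM in knockout 1 to 4 and at 23.9, 33, 23.4 and 25.3 CPM in wildtype 1 to 4 (log2 difference -0.15, SE 0.17). Tapbp, tapasin, was at 145, 131, 115 and 118 CPM in knockout 1 to 4 and at 122, 163, 135 and 139.8 CPM in wildtype 1 to 4 (log2 difference -0.14, SE 0.11). The groups overlapped for both genes, with wildtype 2 the highest. Psmb8, an immunoproteasome subunit, was at 15.2, 6.57, 10.2 and 7.55 CPM in knockout and 7.42, 20.4, 17.6 and 11.4 CPM in wildtype 1 to 4; here too wildtype 2 and 3 were highest (log2 difference -0.52, SE 0.34; -0.81 without knockout 1 and -0.30 without wildtype 2). Psmb10, another subunit, was at 20, 12.0, 12.7 and 10.6 CPM in knockout 1 to 4 and at 12.5, 15.6, 16 and 12.1 CPM in wildtype 1 to 4, a log2 difference of -0.02 (SE 0.20). The 95% interval of the Psmb10 difference ran from -0.47 to 0.42.

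**Figure D2:**
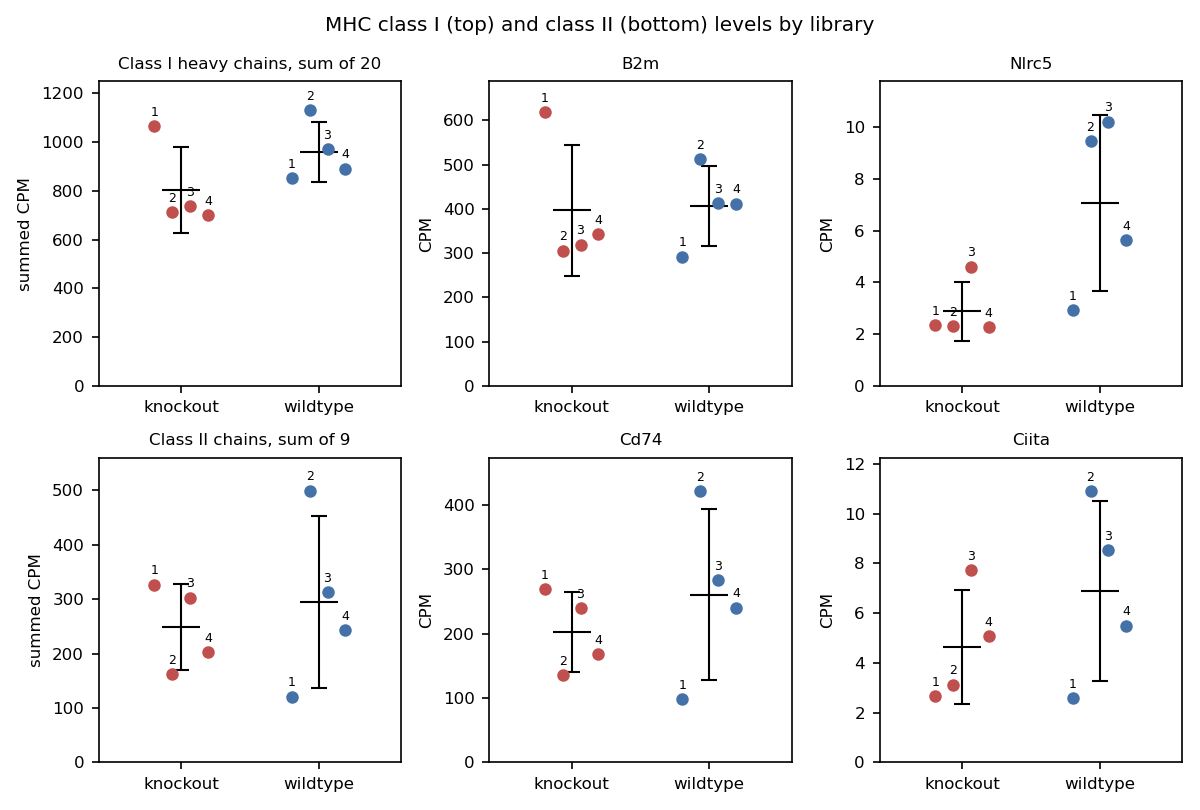
CPM of 2 summed groups and 4 single genes in each library (y axis, CPM or summed CPM; x axis, knockout left and wildtype right; points are libraries with their replicate number, the bar is the mean and SD of 4). Nlrc5 was at or below 4.60 CPM in knockout and at 2.93 to 10.2 CPM in wildtype, and class II chains spanned 121 to 499 CPM within wildtype.

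Several class Ib genes had levels that set single libraries apart from others of the same genotype. H2-T22 (ENSMUSG00000056116, chromosome 17, 36037128 to 36042747), whose protein is a ligand of some gamma delta T cells, was at 35.9, 35.9, 74.9 and 38.8 CPM in knockout 1 to 4, against 37.4, 53.4, 7.46 and 6.14 CPM in wildtype 1 to 4. Wildtype 3 and 4 were 4.81-fold or more below every other library, and knockout 3 was the highest of all. H2-T10 (ENSMUSG00000079491, 36115876 to 36121465), a close relative of H2-T22 annotated as a polymorphic pseudogene, was at 13.6, 12.4, 0.519 and 14.8 CPM in knockout 1 to 4 and 11.8, 16.5, 27.9 and 22.7 CPM in wildtype 1 to 4. H2-T10 was lowest in knockout 3 and highest in wildtype 3 and 4, the reverse of H2-T22 in those 3 libraries. In reads, it had 7 counts in knockout 3 and 173 to 441 counts elsewhere. The genotype difference was 0.83 (SE 0.72) for H2-T22 and -0.92 (SE 0.70) for H2-T10 on the log2 scale (edgeR adjusted p = 0.957 for both); without wildtype 3 and 4 it was 0.03 and -0.45. With single libraries left out H2-T22 ran from 0.50, without wildtype 4 or knockout 3, to 1.45, without wildtype 2, and H2-T10 was -0.54 without knockout 3.

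Read together, these neighbouring genes sorted the libraries into 3 levels. The ratio of H2-T10 to H2-T22 in CPM was 0.38, 0.347, 0.00693 and 0.38 in knockout 1 to 4, and 0.315, 0.308, 3.74 and 3.71 in wildtype 1 to 4. So 5 libraries, from both genotypes, had nearly the same ratio, knockout 3 lay far below them and wildtype 3 and 4 far above. The sum of both genes spanned less, from 48.3 to 75.5 CPM in knockout and 28.9 to 69.9 CPM in wildtype. Other genes of the T region were uneven too. H2-T23, which encodes the nonclassical chain Qa-1 that natural killer cells read through NKG2A, was at 62.9, 50, 71.8 and 45.4 CPM in knockout 1 to 4 and at 46.2, 71.7, 23.6 and 22.6 CPM in wildtype 1 to 4, so it was lowest in wildtype 3 and 4 as H2-T22 was. H2-T-ps, an unprocessed pseudogene beside H2-T10, was at 11.7, 8.17, 3.41 and 6.62 CPM in knockout 1 to 4 and at 11.2, 14.2, 18.1 and 19.2 CPM in wildtype 1 to 4, lowest in knockout 3 and highest in wildtype 3 and 4. Its genotype difference was -1.06 (SE 0.32; edgeR adjusted p = 0.957), with knockout 1 inside the wildtype range, and was -0.76 without wildtype 3 and 4. H2-T24, beside H2-T23, varied little, from 3.27 to 4.57 CPM in knockout and 3.62 to 4.26 CPM in wildtype.

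**Figure D3:**
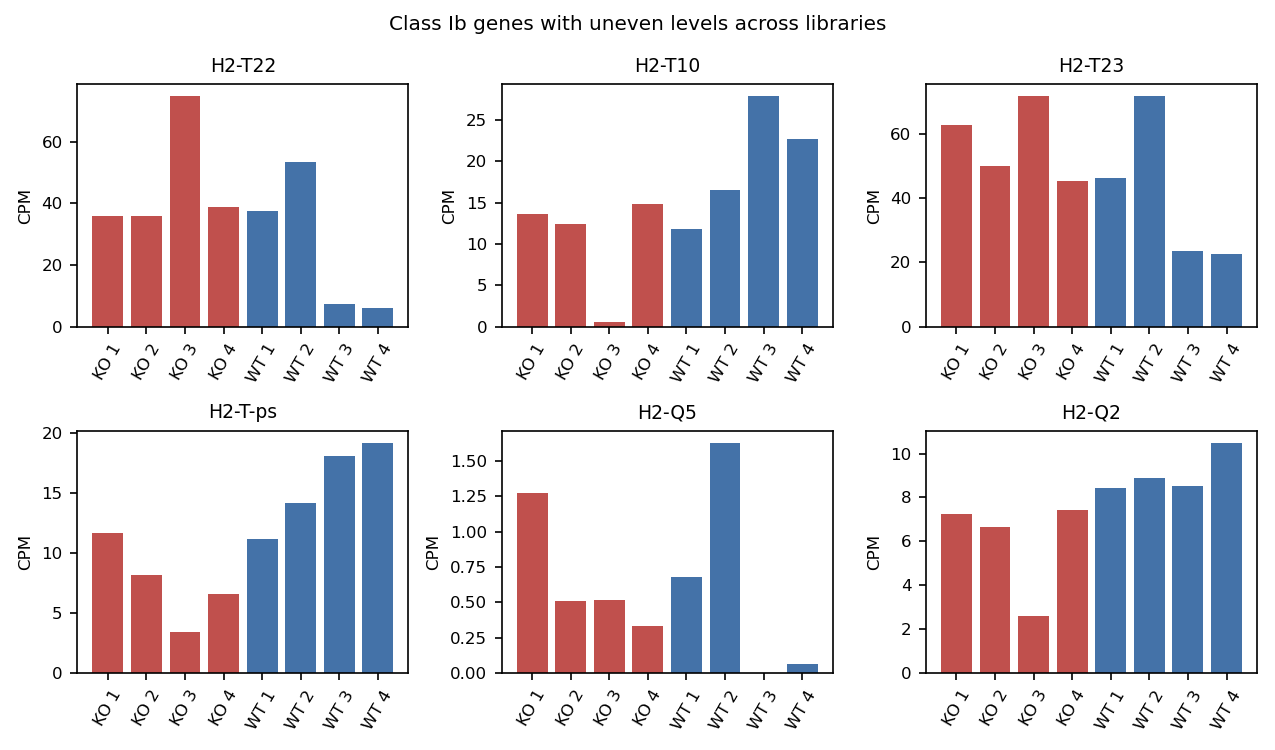
CPM of 6 class Ib genes in each library (y axis, CPM; x axis, KO knockout and WT wildtype replicates; bars are single libraries). H2-T22 was at 7.46 and 6.14 CPM in WT 3 and WT 4 and at 35.9 to 74.9 CPM elsewhere, and H2-T10 was at 0.519 CPM in KO 3 and at 11.8 to 27.9 CPM elsewhere.

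Of the Q genes, H2-Q5 and H2-Q2 showed the same kind of unevenness at lower levels. H2-Q5, a polymorphic pseudogene too low to test, had 20, 8, 7 and 5 counts in knockout 1 to 4 and 10, 26, 0 and 1 counts in wildtype 1 to 4, so wildtype 3 and 4 were again the lowest. H2-Q2 was at 7.23, 6.64, 2.60 and 7.42 CPM in knockout 1 to 4 and at 8.44, 8.89, 8.53 and 10.5 CPM in wildtype 1 to 4; knockout 3 was far below the rest, and the groups did not overlap (log2 difference -0.60, SE 0.28; edgeR adjusted p = 0.957; -0.36 without knockout 3). H2-Bl, a polymorphic pseudogene of the T region, was the other member whose groups did not overlap, at 2.41 to 3.68 CPM in knockout and 4.11 to 4.84 CPM in wildtype (log2 difference -0.58, SE 0.20). Groups that did not overlap, with knockout lower, made up 0.942% of all genes tested, and 1.97% did not overlap in either direction, against 2 of 33 members. H2-Q4, whose protein Qb-1 is secreted, was at 25.9, 21.4, 18.2 and 19.1 CPM in knockout 1 to 4 and at 24.2, 38.5, 26.9 and 29.5 CPM in wildtype 1 to 4; wildtype 1 lay inside the knockout range (log2 difference -0.49, SE 0.16). H2-Q6 and H2-Q7, which encode Qa-2 antigens, differed by 0.00 (SE 0.40) and 0.02 (SE 0.47). Both were highest in wildtype 2 and lowest in wildtype 1. Knockout 3 held the lowest value for 9 of the 17 tested heavy chain genes. How often it was lowest over all genes tested was not counted, and it had the fewest gene counts of the 8 libraries, 13871861.

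By a definition of on and off (3 or fewer counts in 1 library and 30 or more in another) 0 of 39 members qualified, against 0.77% of the 18707 genes with 10 or more counts. With 15 counts in place of 30, 3 members did (H2-M2, H2-Oa and H2-Q5), against 3.02%, and with 0 counts in place of 3, 0 did, against 0.305%. H2-M2, a class Ib gene, had 5, 13, 8 and 15 counts in knockout 1 to 4 and 3, 20, 24 and 17 counts in wildtype 1 to 4, and H2-Oa, a DO chain, had 9, 9, 19 and 10 counts in knockout and 3, 10, 7 and 6 counts in wildtype. Both were lowest in wildtype 1 and neither was at 0 in any library. A second definition, added after the values were seen, asked for a 4-fold gap between a lower and an upper set of libraries, with 30 or more counts throughout the upper set. H2-T22 and H2-T10 met it, 2 of 39 members, against 0.652% of all such genes and 3 of 123 other genes between the first and last H2- member (chromosome 17, 33974659 to 37483552). H2-T22 was the 1 gene in the data with wildtype 3 and 4 alone below such a gap, and H2-T10 was 1 of 8 with knockout 3 alone below it, the other 7 being on other chromosomes. A 2-fold gap added H2-Q2, for 3 of 39 members, against 1.69% of all genes. The files hold no alleles, so whether these libraries differ in MHC haplotype was not tested.

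**Figure D4:**
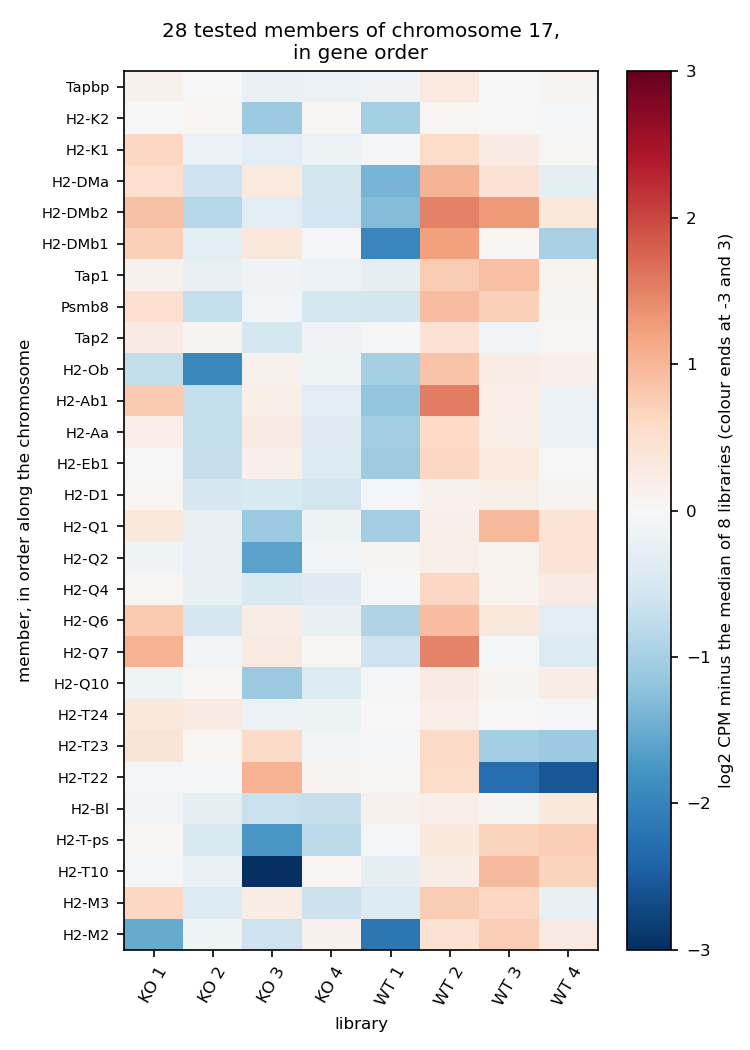
Level of the 28 tested members on chromosome 17 in each library, relative to that gene's median over 8 libraries (rows, members in order along the chromosome; columns, KO knockout and WT wildtype libraries; colour, log2 CPM minus the median). The lowest cell is H2-T10 in KO 3 at -4.77, beyond the end of the colour scale, and dark blue cells also mark H2-T22 in WT 3 and WT 4, H2-Q2 and H2-T-ps in KO 3, H2-Ob in KO 2, and H2-M2 and several class II genes in WT 1.

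Class I genes share sequence, and reads with several equally good places were set aside in counting. In GENCODE M21 transcripts, 53.5% of the 50-base windows of H2-T22 and 50.4% of those of H2-T10 also occur, on either strand, in transcripts of another gene. The pair shared 31.2% of the windows of H2-T22 and 31.7% of those of H2-T10 with each other, and the next largest part was shared with an annotated antisense gene that overlaps each (A930015D03Rik and BC023719). A read from such an overlap can have a single best place, so 53.5% and 50.4% may overstate the part with several places. For H2-K1 and H2-D1 the share was 9.63% and 12.8%, and for B2m 0%. Levels of H2-T22, H2-T10, H2-Q4 to H2-Q7 (26.5% to 36.4% shared), H2-T-ps and the H2-DMb pair are therefore uncertain, and the part of shared sequence in the patterns was not tested.

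Class II transcripts were uneven among libraries of the same genotype, and most of them had the same highest and lowest library. H2-Aa, the A alpha chain, was at 98, 52.4, 103 and 65.6 CPM in knockout 1 to 4, against 41.5, 129, 97.3 and 75.8 CPM in wildtype 1 to 4. H2-Ab1, the A beta chain that pairs with it, was at 104, 36.8, 68.2 and 47.9 CPM in knockout and 26.5, 176, 69.6 and 53.7 CPM in wildtype 1 to 4. For both chains wildtype 2 was the highest and wildtype 1 the lowest library, so wildtype enclosed knockout. H2-Eb1, the E beta chain, was at 93.2, 58.5, 104 and 71.0 CPM in knockout 1 to 4 and at 45.0, 146, 116 and 95.7 CPM in wildtype 1 to 4, in the same pattern. H2-Eb1 transcripts were thus present in all libraries, while H2-Ea-ps, the gene of its alpha partner, had 0 counts. The log2 differences were -0.11 (SE 0.34) for H2-Aa, -0.34 (SE 0.59) for H2-Ab1 and -0.30 (SE 0.33) for H2-Eb1, with 95% intervals from -0.88 to 0.67, -1.72 to 1.03 and -1.05 to 0.44.

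Cd74, the invariant chain that escorts class II molecules, was at 269, 135, 240 and 168 CPM in knockout 1 to 4 and at 97.8, 422, 284 and 240 CPM in wildtype 1 to 4. It lies on another chromosome than the class II chains and had the same highest and lowest library. Ciita, the class II coactivator, was at 2.66, 3.13, 7.72 and 5.08 CPM in knockout 1 to 4 and at 2.59, 10.9, 8.53 and 5.49 CPM in wildtype 1 to 4. Ciita was low in knockout 1, where summed class II was the highest of the knockout libraries. The log2 difference was -0.36 (SE 0.40) for Cd74 and -0.57 (SE 0.45) for Ciita (edgeR adjusted p = 0.957 for both). Without wildtype 2 these were -0.03 and -0.26, and that of H2-Eb1 was -0.07.

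The 4 tested peptide-loading genes of class II were also highest in wildtype 2. H2-DMa, a chain of the DM molecule that exchanges peptides on class II, was at 14.1, 6.44, 12.2 and 6.75 CPM in knockout 1 to 4 and at 3.81, 20.1, 13.5 and 8.14 CPM in wildtype 1 to 4. H2-DMb1, a DM beta chain, was at 11.3, 5.42, 8.68 and 6.55 CPM in knockout 1 to 4 and at 1.77, 16.2, 7.20 and 3.49 CPM in wildtype 1 to 4; its lowest library was again wildtype 1 and its log2 difference was 0.15 (SE 0.59). H2-DMb2, the second DM beta gene, differed by -0.85 (SE 0.56), and H2-Ob, a chain of the DO molecule that restrains DM, by -0.69 (SE 0.45). H2-DMb1 and H2-DMb2 shared 22.7% and 21.2% of their 50-base windows with each other. H2-Oa and H2-Eb2 were too low to test, at up to 1.41 and 0.501 CPM. Of the 9 tested class II genes and partners, wildtype 2 held the highest value for 9 and wildtype 1 the lowest for 8. The same counts over all genes tested were not made.

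The promoters of 3 class II chains are shown because theirs were the 3 of 8 that held both TGATGA and ATTGG, letters of the X and Y boxes known in genes of this class; windows and capitals are as above.
H2-Aa (chr17:34287774-34288073, minus strand): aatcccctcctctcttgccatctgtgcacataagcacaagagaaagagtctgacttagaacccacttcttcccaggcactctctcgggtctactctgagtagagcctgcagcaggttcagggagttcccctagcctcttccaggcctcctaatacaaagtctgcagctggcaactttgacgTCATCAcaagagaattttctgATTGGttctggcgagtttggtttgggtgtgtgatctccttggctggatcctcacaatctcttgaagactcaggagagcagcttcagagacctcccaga
H2-Eb1 (chr17:34305617-34305916, plus strand): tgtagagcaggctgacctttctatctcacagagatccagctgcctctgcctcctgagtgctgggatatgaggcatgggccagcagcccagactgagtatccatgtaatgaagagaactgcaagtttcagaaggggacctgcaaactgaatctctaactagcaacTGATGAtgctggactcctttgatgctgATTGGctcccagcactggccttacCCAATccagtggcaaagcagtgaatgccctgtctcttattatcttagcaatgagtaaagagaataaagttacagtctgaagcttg
H2-DMb1 (chr17:34152941-34153240, plus strand): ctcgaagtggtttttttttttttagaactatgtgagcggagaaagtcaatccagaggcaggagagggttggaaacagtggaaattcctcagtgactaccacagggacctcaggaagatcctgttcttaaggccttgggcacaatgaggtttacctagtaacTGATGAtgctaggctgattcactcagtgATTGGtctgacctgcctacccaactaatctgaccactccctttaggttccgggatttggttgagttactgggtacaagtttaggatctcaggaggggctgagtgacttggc
The other 5, among them those of H2-DMa, H2-DMb2 and H2-Ob, lacked TGATGA. Of 8 class II chain promoters, ATTGG was in 7 and TGATGA in 3, against 37.9% and 12.7% of all promoters; the kappaB and interferon letters were in 0 of the 8.

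Summed over 9 chain genes, class II was at 326, 162, 302 and 202 CPM in knockout 1 to 4, against 121, 499, 313 and 243 CPM in wildtype 1 to 4. The log2 difference was -0.12, smaller than the SD of the log2 sums, 0.48 in knockout and 0.85 in wildtype. It was 0.19 without wildtype 2, 0.06 without knockout 2 and -0.49 without wildtype 1, so single libraries set its sign and size. Without knockout 2 and knockout 4 it was 0.27, and the class I sum then differed by -0.11. Both lowest libraries, wildtype 1 and knockout 2, were those with adrenal transcripts, and without them the difference was -0.30; the part of adrenal tissue was not tested.

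Markers of macrophages, dendritic cells and B cells, which carry class II, and of T and NK cells were set beside these sums. The 9 macrophage markers summed to 162 to 188 CPM in knockout and 156 to 215 CPM in wildtype. That sum was highest in wildtype 2 and lowest in wildtype 1, as for class II. Csf1r, at 66.2 to 128 CPM, was its largest part in each library. Csf1r and Adgre1 were highest in wildtype 2, but the other macrophage markers were not. C1qa, C1qb, C1qc, Mrc1 and Lyz2 were highest in knockout 1, Cd68 in knockout 4 and Cx3cr1 in wildtype 4. The 7 dendritic cell markers, of which 4 were tested, summed to 13.8 to 24.2 CPM in knockout and 13.7 to 22.4 CPM in wildtype, with knockout 3 the highest. Summed class II chains spanned 4.13-fold across the 8 libraries, against 1.38-fold for the macrophage sum and 1.77-fold for the dendritic cell sum. Zbtb46, at 7.75 to 11.6 CPM and 1.49-fold, was the largest part of the dendritic cell sum in each library. The lower markers Xcr1, Flt3 and Itgax spanned 6.08-fold, 5.72-fold and 4.95-fold. They held only 126, 85 and 287 counts over the 8 libraries, so counting error widens their spans more than that of the class II sum. Clec9a, Cd209a and Ccr7, with 444, 69 and 51 counts, spanned 3.27-fold, 10.3-fold and 3.5-fold. Xcr1 and Flt3 were highest in wildtype 2, as class II was. Itgax, Zbtb46 and Cd209a were highest in knockout 3, Clec9a in wildtype 3 and Ccr7 in knockout 2. Cd209a was lowest in wildtype 2. B cell markers, 5 genes, summed to 9.42 to 18.9 CPM in knockout and 11.1 to 42.9 CPM in wildtype, most of it Ighm, and T and NK cell markers, 7 genes, to 14.5 to 41.4 CPM in knockout and 6.32 to 21.2 CPM in wildtype. No marker of these 4 lists had 0 counts in all libraries, and 0 of their 20 tested genes passed the test; their part in the class II values was not tested.

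**Figure D5:**
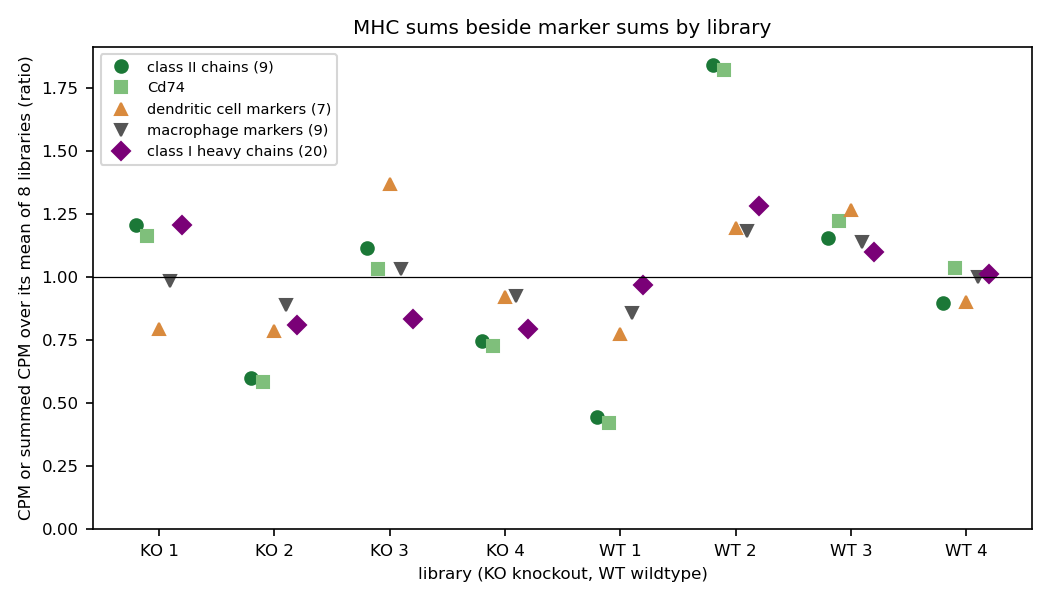
Class I and class II sums, Cd74 and 2 marker sums in each library, each divided by its own mean over 8 libraries (y axis, ratio; x axis, KO knockout and WT wildtype replicates; points are single libraries). Class II chains and Cd74 lie together, highest in WT 2 and lowest in WT 1, and span more than the macrophage markers, whose range was 1.38-fold.

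The wider pathway was near the median of all genes. Of 25 other antigen presentation genes 24 were tested, 0 passed, and 15 had positive and 9 negative log2 differences, with a median of 0.05. Rfx5, a DNA-binding subunit of the complex on the X box, had the lowest p, at 7.80 to 9.56 CPM in knockout and 9.80 to 11.9 CPM in wildtype, without overlap (log2 difference -0.35, SE 0.13; edgeR adjusted p = 0.957). Lgmn, a lysosomal protease, differed by 0.23 (SE 0.14) and Psme1, a proteasome activator subunit, by 0.17 (SE 0.13).

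Interferon gamma pathway genes were mostly lower in knockout, as were 12 of 17 tested class I heavy chain genes, but not the class Ib sum. Of 20 genes 19 were tested and 0 passed; 16 had negative and 3 positive differences, with a median of -0.22, against 0.01 for all genes tested. The interferon-inducible GTPase gene Igtp was at 19.8, 10.6, 18.9 and 20.3 CPM in knockout 1 to 4, against 16.9, 43.3, 48.2 and 28.8 CPM in wildtype 1 to 4. As for Nlrc5, 3 wildtype libraries lay above the knockout range and wildtype 1 inside it. Igtp differed by -0.98 (SE 0.32) and Iigp1, another GTPase gene, by -1.39 (SE 0.49) on the log2 scale (edgeR adjusted p = 0.957 for both). Ifng itself had at most 1 count in any library.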

How the data were processed

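The authors deposited raw counts per Ensembl gene, 1 set for each of 8 libraries of whole kidney RNA. The submitters' processing notes name STAR, HTSeq, edgeR and mm9, with no versions or annotation. Libraries came from a directional kit, per the labels' protocols, but the authors' counting ignored strand, as the deposited names show, so sense and antisense reads cannot be told apart, and multi-mapping reads (15.8% to 20.9%), ambiguous reads (2.05% to 2.31%) and reads outside genes (11.6% to 16.2%) were set aside and stay out of library sizes. Symbols, positions and exon lengths are those of GENCODE M21 (GRCm38), matched by identifier for 32860 of 37583 genes; no position was converted.

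The test was edgeR 4.0.16 in R 4.3.3 (quasi-likelihood, robust, two-sided, TMM, filterByExpr with a minimum count of 10 and total of 15, genotype as the only term), with a threshold of 0.05 on the adjusted p over 14433 genes. The test was also run on simulated counts, drawn for each gene apart and without effects shared within a library. That run cannot show how the test behaves under such shared effects. CPM uses TMM-scaled library sizes. Floors cover counting error only, since PCR copies count as reads. Sums over members have no test. Members, gene lists and tests were chosen with earlier results of these data known. Libraries were grouped by title. Genes given with per-library values were fixed by a rule: 17 listed members, of which Psmb9 was not matched, the 4 class Ib genes of highest mean CPM, and members at an unadjusted p under 0.05, without overlap, or with an on and off pattern; from other lists up to 3 genes of lowest p, of which 1 is not reported here. H2-T24, H2-Q5 to H2-Q7, H2-DMb2, H2-Ob, H2-Oa, H2-Eb2, Ifng and the genes of the closing section were chosen after their values were seen. Alternatives were DESeq2 1.42.0, limma-voom (limma 3.58.1), other scalings and filters, a replicate block and libraries left out. Figures used matplotlib 3.10.9.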

Additional observations from a re-analysis of the deposited data

Results flagged for a closer look

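Within groups of 4 libraries, 8 of 54 value groups held a library whose gap to its nearest neighbour exceeded Dixon's 95% limit; chance alone gives about 1 in 20. Knockout 1 stood above the other knockout libraries for H2-K1 (382 CPM against 200 to 226), H2-D1 (476 against 313 to 333), B2m (619 against 306 to 343) and the class I sum (1065 against 701 to 736). Knockout 3 stood above them for Nlrc5 (4.60 CPM against 2.27 to 2.35) and H2-T22 (74.9 against 35.9 to 38.8), and below them for H2-T10 (0.519 CPM against 12.4 to 14.8) and H2-Q2 (2.60 against 6.64 to 7.42). These values come from overlapping sets of the same libraries and are not independent.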

How the results depend on the processing

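No member was called under any of the 17 alternatives tried. The count over all genes was 0 as reported, 1 without knockout 2 and knockout 4 and 4 with DESeq2, and ran from 0 to 2 when each library was left out in turn. Members with an on and off pattern numbered 3 with 15 counts as the upper limit and 0 with 0 counts as the lower. The class I sum kept its sign in the alternatives run, from -0.41 to -0.19 with each library left out and -0.11 without knockout 2 and knockout 4. The class II sum ran from -0.49 to 0.19 and was 0.27 in that fit. Leaving out knockout 2 and knockout 4 turned the sign of H2-K1 (0.0017), B2m (0.20), H2-Aa (0.22), H2-Ab1 (0.0748), Psmb10 (0.22), H2-DMa (0.20) and Tfap2b (-0.30). Psmb10 was 0.0095 with library totals only. H2-DMb1 was -0.0172 without the adrenal libraries and -0.18 without wildtype 3 and 4, a fit added after seeing the data, in which H2-T23 was -0.0375. With each library left out, log2 differences ran from -0.34 to 0.0904 for B2m, -0.34 to 0.16 for H2-Aa, -0.68 to 0.36 for H2-Ab1, -0.26 to 0.088 for Psmb10, -0.49 to 0.21 for H2-DMa, -0.17 to 0.94 for H2-DMb1 and -0.12 to 0.18 for Tfap2b. The cause was not tested. Replicate numbers are shared between groups by name only: same-numbered libraries deviated together with correlations of 0.226, -0.23, 0.282 and 0.293, and 2 of 4 knockout libraries correlated best with their own number. With the replicate block 0 genes and 0 members were called, with 1075 genes at an unadjusted p under 0.05 against 578 without it. With 100-base windows the shared part of H2-T22 and H2-T10 was 31.5% and 28.1%, and the part shared with each other was 6.92% and 7.06%. Depth limits H2-Q5, H2-Oa, H2-Eb2, H2-M5, H2-T3 and H2-Ke6, which were too low to test.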

Other observations

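Other genes between the H2- members also had uneven levels. C4a, a complement gene, was at 25.7, 27.4, 62.8 and 22.1 CPM in knockout 1 to 4 and at 68.5, 57.9, 80.8 and 78.7 CPM in wildtype 1 to 4, so knockout 3 lay with wildtype. Gm11127, a class I-like gene beside H2-T22, had 13, 18, 6 and 15 counts in knockout 1 to 4 and 8, 11, 0 and 2 counts in wildtype 1 to 4. Gm10499, a pseudogene near H2-T10, had 83, 57, 23 and 45 counts in knockout 1 to 4 and 111, 86, 90 and 89 counts in wildtype 1 to 4. Cyp21a1, the adrenal steroid 21-hydroxylase gene that lies in this interval, was at 126 CPM in knockout 2 and 105 CPM in wildtype 1, and at most 1.6 CPM elsewhere. These genes were picked after their values were seen.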
